A study of Apis mellifera with 15 samples.

Results

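The transcript shares of 200 isoform-rich genes were followed in the brains of forager honey bees (Apis mellifera, adult workers) fed the neonicotinoid insecticide thiacloprid. A gene was a member if it carried a LOC identifier, at least 10 annotated transcripts with at least 1 messenger RNA model among them, and a mean count of at least 100 over the 15 libraries. At most 200 genes were kept, those with most transcripts, with ties settled by gene name. The members were 200 of the 12112 genes in the deposited table and held 3150 of its 28276 transcripts. There were 232 candidates. The limit fell among genes with 10 transcripts, of which 13 of 45 were kept, and the member with the lowest mean count had 107, beside 99.9 in the nearest gene that the count left out. Transcript number and mean count chose the members, so both are given only as a description.

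The 3 groups held 5 libraries each: bees given sucrose solution with solvent (control), with thiacloprid at 25 ng/bee, or with thiacloprid at 250 ng/bee. All bees were kept in bottles for 72 h, and each library was made from a pool of 5 dissected brains, so pools of different animals and technical steps both add to the spread between libraries. Messenger RNA was selected by its poly-A tail and sequenced from stranded libraries. The share of a transcript is its percentage of the summed FPKM (fragments scaled to transcript length and library size) of its gene in a library.

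A gene makes several messenger RNAs by starting transcription at different promoters, by joining exons in different combinations and by ending the transcript at different polyadenylation sites. Nervous tissue is known for wide use of all 3 routes, and long genes for ion channels, cell adhesion and the cytoskeleton are textbook cases in insects and vertebrates. Short reads cover only a small piece of a transcript, so the share of each near-identical isoform is an estimate from the reads that tell isoforms apart. The files give no product names for these loci. The reference gene table lists all 200 as protein coding, and names a single one by synonyms: LOC551883 is Cav3 or Cav3a, a name used for T-type voltage-gated calcium channels.

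The members were large genes. Their median span was 47122 bases (2749 to 739303), against 6212 bases in the 3760 other genes with 2 to 9 transcripts and the same mean count or more. The transcript with most exons had a median of 17 exons (4 to 143), against 8 in those other genes. Span and highest exon number are taken over all transcripts of a gene, so having more transcripts can by itself raise both. The median of the members' typical transcript lengths was 5150 bases, against 2473 in the others. Members had a median of 13 annotated transcripts (10 to 50). These fell into a median of 4 start groups, defined as transcripts whose starts lie within 100 bases of each other, and a median of 2 end groups defined in the same way. All transcripts shared 1 start group in 29 members and 1 end group in 97. Of the 3150 transcripts, 189 in 46 genes were noncoding models, and in 18 genes such a model led in the control.

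Most annotated isoforms contributed little. Of the members' transcripts, 414 (13.1%) were listed at 0 FPKM in all 15 libraries and 500 (15.9%) were above 0 in all of them, compared with 4.87% and 40.5% in the other genes. Within 1 library, between 48.0% and 51.6% were listed at 0 in control libraries, between 50.9% and 54.9% in those of 25 ng/bee and between 43.6% and 56.3% in those of 250 ng/bee. The first replicate of the higher dose, which had the most counts, held the lowest of these percentages. By the rule, members had more transcripts per gene than the other genes, with a median of 13 against 3. The part of this in the contrast with the other genes was not tested.

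The effective number of isoforms (the inverse Simpson index, which equals the number of transcripts when all have equal shares and 1 when a single transcript holds everything) had a median of 2.93 over the members in the control. Its quartiles were 2.09 and 4.22 and its range 1.04 to 15.6. It was under 2 in 44 members, 2 to 5 in 123 and over 5 in 33, 4 of which were over 10. Across the 200 genes its Spearman correlation with the number of annotated transcripts was 0.35, across genes that share the same libraries. That number chose the members and is also the highest value the index can reach, so the correlation is only a description.

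**Figure D1:**
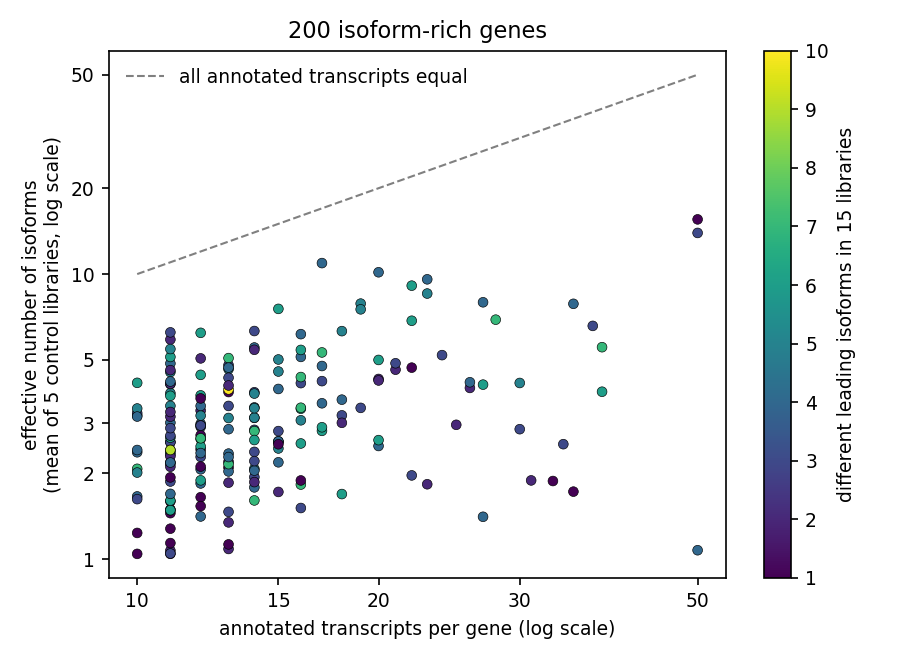
Each point is 1 of the 200 isoform-rich genes, with its annotated transcripts on the x axis and its effective number of isoforms (mean of 5 control libraries) on the y axis, both on log scales. The dashed line marks equal use of all transcripts, and colour gives how many different isoforms led in the 15 libraries (1 to 10). By its definition the index cannot lie above the line. The 3 genes with 50 transcripts have effective numbers of 15.6, 13.9 and 1.08.

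LOC725336 had the highest effective number of isoforms. It lies on the minus strand of chromosome 9 from 10685025 to 10863615 and carries 50 transcripts, 48 of which share the most upstream start, but 39 end groups. Its effective number was 15.6 ± 2.03 in the control (SD, n = 5). The leading isoform, XM_006567532.3, held 18.2% ± 1.54 of the gene in the control, 17.4% ± 4.37 at 25 ng/bee and 16.2% ± 2.19 at 250 ng/bee (n = 5 each). It led in all 15 libraries, with shares from 10.6% to 22.3%. The other 3 isoforms with a mean share of at least 5% over the 15 libraries were XM_006567526.3 with 6.49% ± 2.04 in the control, XM_016913871.2 with 5.70% ± 1.20 and XM_016913863.2 with 4.55% ± 1.18. Each ends at a place of its own, and all of them were above 0 in every library. So was the only transcript ending at 10698497, with 4.70% ± 2.88 in the control. These ends were thus listed side by side in every pool.

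LOC409422, with 50 transcripts on chromosome 3 from 23922 to 222272, had an effective number of 13.9 ± 5.87. A noncoding model, XR_003304285.1, led its control shares with 18.5% ± 6.34, and 3 isoforms led in different libraries. LOC551446, whose 17 transcripts share 1 start group, had 10.9 ± 1.46. LOC725970 had 10.1 ± 2.51 and LOC410689 had 9.59 ± 3.74, and 4 isoforms led in each over the 15 libraries.

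At the other end, LOC100577517 (chromosome 6, 7439413 to 7632596) had an effective number of 1.04 ± 0.013. Its noncoding model XR_003304871.1 held 97.8% ± 0.615 of the control FPKM. LOC408393 had the same effective number, with 97.8% ± 2.76 in XM_026444279.1. The calcium channel gene LOC551883 (Cav3) was also close to 1, at 1.05 ± 0.031, but not always with the same isoform. Its XM_026443545.1 held 98.7%, 97.7%, 95.8%, 96.7% and 0.60% in control replicates 1 to 5, then 5.0%, 98.6%, 98.5%, 99.5% and 98.2% at 25 ng/bee, and 96.3%, 76.8%, 97.2%, 98.3% and 98.6% at 250 ng/bee. The isoform was below 6% in 2 libraries, 1 control and 1 at 25 ng/bee, and above 76% in the rest.

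Such changes of the leading isoform between pools of the same group were common. The isoform with the highest mean control share held a median of 35.9% of its gene, and the SD of that share over the 5 control libraries had a median of 17.6 percentage points (quartiles 9.10 and 28.2). A single isoform led in all 15 libraries in 23 members (11.5%), against 34.8% of the other genes. The rule chose members for many transcripts (median 13, against 3 in the other genes), which leaves more possible leaders. The part of this in the contrast was not tested. In 114 members 4 or more isoforms led at least once. The leading control isoform was the longest transcript of its gene in 60 members and the shortest in 6.

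**Figure D2:**
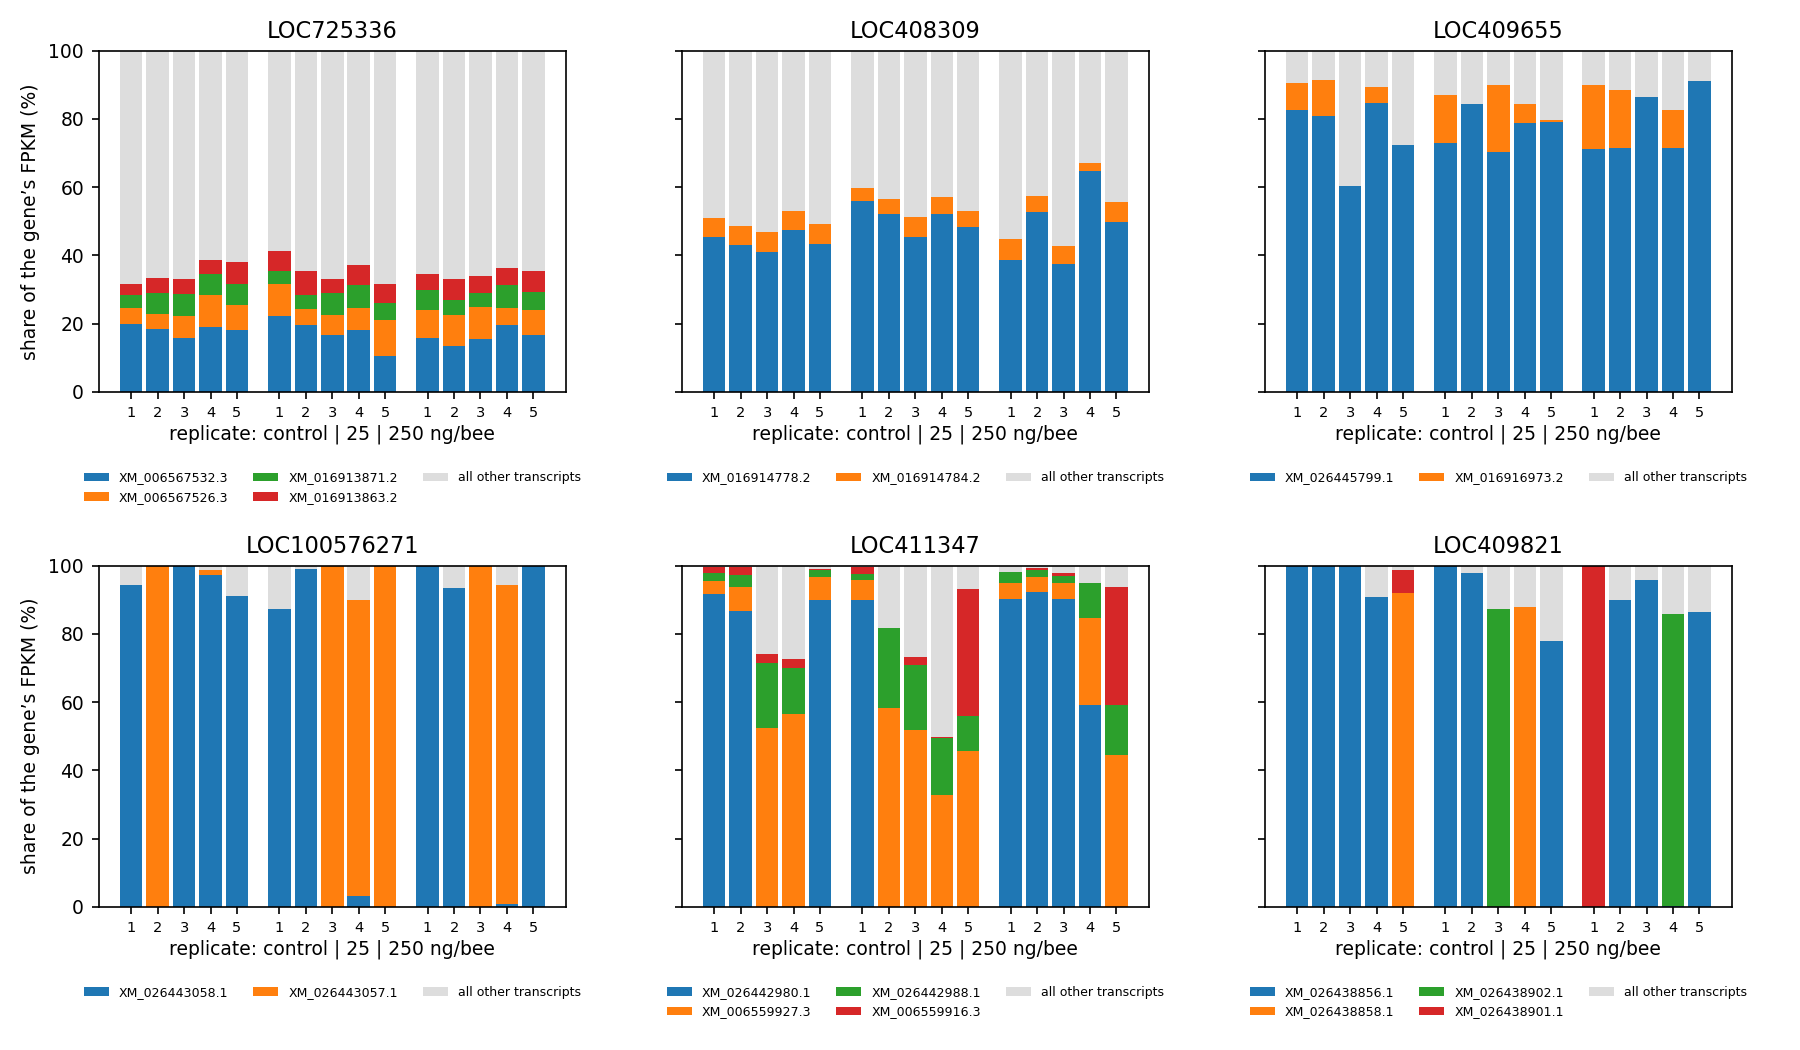
Stacked bars give, for 6 genes, the share of each isoform in the gene's FPKM (y axis, percent) in the 15 libraries (x axis, replicates 1 to 5 of control, 25 and 250 ng/bee). Coloured parts are the isoforms with a mean share of at least 5% and grey is the sum of the rest. In the upper row 1 isoform leads in every library, and in the lower row the leading isoform changes between libraries of the same group.

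In some members with many transcripts the same isoform led in all 15 libraries. LOC408309 (chromosome 11, 13440081 to 13452365, 22 transcripts) had the highest level per length of all members, 312 ± 50.6 FPKM in the control. Its XM_016914778.2 held 44.0% ± 2.43 in the control and between 37.5% and 64.7% at 250 ng/bee, and led in all libraries. LOC409655 (chromosome 16, 35 transcripts in 8 start groups) was led in all libraries by XM_026445799.1, an 18831-base isoform with 30 exons, at 76.2% ± 10.04. LOC409722 (chromosome 8, 33 transcripts) was led throughout by XM_026442419.1 at 67.8% ± 4.72.

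In other members with many transcripts or high levels more than 1 isoform led. LOC408685 (chromosome 2, 12149815 to 12295235) has 38 transcripts in 9 start groups, and 7 isoforms led in different libraries. Its start group with most transcripts, at 12247378, held 90.2%, 3.79%, 47.0%, 5.68% and 89.0% in the control, 39.1%, 5.39%, 74.6%, 83.7% and 11.3% at 25 ng/bee, and 12.2%, 3.75%, 2.09%, 4.37% and 83.9% at 250 ng/bee. High and low shares of this start occurred in each group. In LOC408779 (chromosome 4, 37 transcripts) 1 start group held 73.0% to 95.4% in every control library, while 3 isoforms led in different libraries. LOC413994 (chromosome 9, 38 transcripts) had an effective number of 3.87 ± 1.06 and 6 leading isoforms, and LOC413409 (chromosome 16, 35 transcripts with 1 start group) 7.87 ± 1.65 and 4. Of the most abundant members per length after LOC408309, LOC411114 had 155 ± 35.4 FPKM and LOC725570 had 142 ± 36.5 FPKM in the control. The most upstream start group of LOC725570 held 83.8% to 94.2% there.

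In LOC100576271 (chromosome 9, 6751156 to 6762971) 1 of 2 isoforms took most of the gene in each library. XM_026443058.1, which starts at 6751900, held 94.4%, 0, 100%, 97.4% and 91.2% in the control, 87.1%, 99.1%, 0, 3.26% and 0 at 25 ng/bee, and 100%, 93.3%, 0, 0.75% and 100% at 250 ng/bee. XM_026443057.1, which starts at 6751169, held most of the gene in the libraries where the first was at or near 0. Both states occurred in each of the 3 groups.

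LOC409821 (chromosome 2, 15692317 to 15766954) has 50 transcripts with 1 start group, 1 end group and up to 143 exons, and an effective number of 1.08 ± 0.10. XM_026438856.1, of 29713 bases, held 90.7% to 100% in control replicates 1 to 4 and 0 in replicate 5. There XM_026438858.1, of 29710 bases, held 91.9%. At 250 ng/bee, XM_026438901.1 (29077 bases) held 100% in replicate 1, and XM_026438902.1 (29074 bases) 85.6% in replicate 4. Isoforms that differ little in length thus took turns as nearly the only one listed.

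LOC411347 (chromosome 9, 3893499 to 4152305) also had different leading isoforms between pools, and its gene count differed with them. XM_026442980.1 is the only one of its 13 transcripts that ends at 4152305, the others ending at 4148629, and at 6523 bases it is the longest. Its share was 91.7%, 86.6%, 0, 0 and 89.8% in the control, 89.8%, 0, 0, 0 and 0 at 25 ng/bee, and 90.2%, 92.4%, 90.1%, 59.2% and 0 at 250 ng/bee. The whole gene had 349, 387, 101, 80.1 and 414 CPM (counts scaled to library size by TMM) in the control, 354, 82.0, 69.1, 66.6 and 66.1 at 25 ng/bee, and 400, 336, 318, 301 and 46.4 at 250 ng/bee. In all 7 libraries that list the long isoform at 0 the gene was at or below 101 CPM, and in the other 8 it was above 300 CPM. The deposited gene count is computed from the transcript estimates, and whether the estimates or the amount of RNA differed between these libraries was not tested. Its log2 fold change at 25 ng/bee was -1.06 ± 0.60 (edgeR quasi-likelihood, adjusted p = 0.998).

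LOC409780 (chromosome 1, 3291485 to 3749589, 27 transcripts) was also taken up by a single isoform in most libraries. XM_026439136.1 held 3.35%, 99.2%, 98.6%, 99.0% and 24.5% in the control, 0.90%, 3.16%, 99.6%, 6.80% and 94.7% at 25 ng/bee, and 99.8%, 82.6%, 0, 86.4% and 100% at 250 ng/bee. XM_026439112.1, which starts 1 base away at 3746693, held 96.7% in control replicate 1 and 96.8% and 93.2% in replicates 2 and 4 at 25 ng/bee. In replicate 3 at 250 ng/bee, XM_026439190.1, from another start group at 3552036, held 98.9%. LOC100577801 (chromosome 11, 16 transcripts), with LOC411347 and LOC409780, was among the 3 members whose leading share varied most in the control, with a mean of 48.3% and an SD of 48.1 percentage points.

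Shares were steadier when isoforms were summed by where they start or end. Merging transcripts into fewer groups by itself raises the leading share and leaves fewer possible leaders. How much of the difference comes from this was not tested. Among the 171 members with at least 2 start groups, 1 start group led in all 15 libraries in 75 (43.9%), and the leading group held a median of 76.1% in the control with an SD of 10.5 percentage points. It was the most upstream group in 92 of them. Among the 103 members with at least 2 end groups, 1 end group led in all libraries in 76 (73.8%), with a median share of 85.8% and an SD of 4.71 percentage points. It was the most downstream in 81. The leading single isoform of those same 103 genes had a median SD of 13.9 percentage points.

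The control SD of the leading share was 22.3 percentage points in the 97 members with 1 end group and 13.9 in the 103 with more. It was 20.1 in the 54 members with a mean count under 500, 18.6 in the 96 with 500 to 2000 and 13.4 in the 50 over 2000. It was 17.7 in genes with 1 start group, 17.3 with 2 or 3 and 17.6 with 4 or more. Across the 200 genes its Spearman correlation was -0.24 with the number of end groups, -0.19 with mean count and -0.04 with the number of transcripts. Genes with more counts had a smaller spread, and also those with over 2000 counts varied between control pools.

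The question of the design was whether these shares move with thiacloprid. Between 2 libraries of the same group, the share that would have to be moved to turn one isoform profile into the other had a median over members of 39.5 percentage points in the control, 39.8 at 25 ng/bee and 39.8 at 250 ng/bee. Between libraries of different groups it was 39.2 for control and 25 ng/bee, 39.7 for control and 250 ng/bee and 39.4 for both doses. For start groups it was 11.5, 11.2 and 12.04 within the groups and 11.2, 11.5 and 11.3 between them. For end groups it was 4.87, 5.17 and 5.71 within and 5.10, 5.64 and 5.37 between. Summing transcripts into groups can only lower this measure. Libraries of different groups were thus about as far apart as libraries of the same group for single isoforms and start groups. For end groups the medians within 250 ng/bee and between the doses depended on replicate 1 at 250 ng/bee, and were 4.93 and 4.81 without it. The median between control and 250 ng/bee changed little, to 5.57. It then lay above the medians within the control (4.87) and within 250 ng/bee (4.93). Control pairs lay at 3.85 to 5.35 and pairs of control and 250 ng/bee at 4.18 to 7.93, so the ranges overlapped. In the other genes with 2 to 9 transcripts the isoform share to be moved was 12.5 within the control, 12.8 within 25 ng/bee and 13.3 within 250 ng/bee. Between groups it was 13.0 for control and 25 ng/bee, 13.1 for control and 250 ng/bee and 12.8 for both doses. Leaving out replicate 1 at 250 ng/bee, it was 12.8 within 250 ng/bee, 13.0 for control and 250 ng/bee and 12.5 for both doses.

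**Figure D3:**
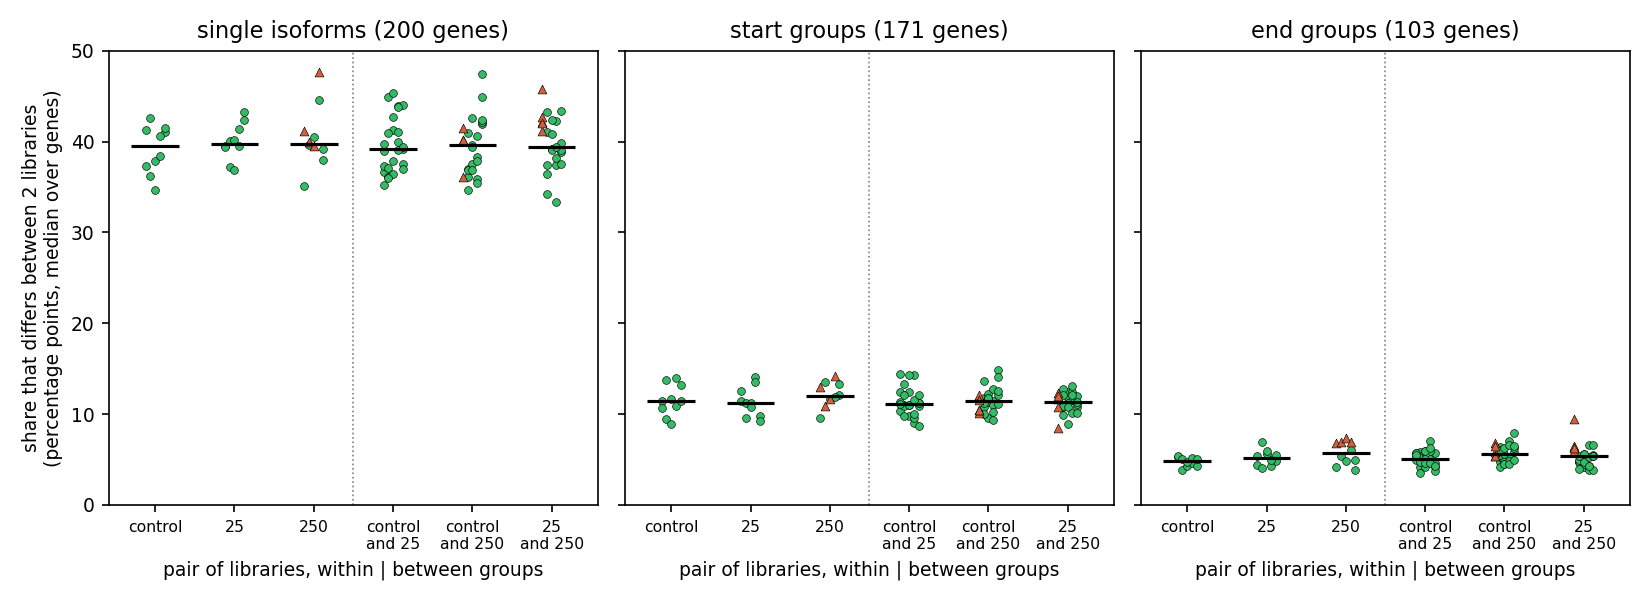
Each point is a pair of libraries, and the y axis gives the share (percentage points, median over genes) that differs between them for single isoforms, start groups and end groups of the isoform-rich genes. Left of the dotted line both libraries belong to 1 group, right of it to 2 groups, bars are medians, and triangles are pairs with replicate 1 at 250 ng/bee. Single isoforms lie at 33.4 to 47.7, start groups at 8.47 to 14.8 and end groups at 3.50 to 9.51, with no offset between the within-group and between-group medians larger than the spread of the pairs.

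Each isoform was tested on the log2 odds of its share (log2 of its FPKM + 0.1 over the summed FPKM of the gene's other isoforms + 0.1) with limma in 1 fit of all 15 libraries, over 10534 isoforms of all genes with a mean share of at least 5%. Of these, 979 belonged to the 200 members. None of the 979 passed an adjusted p of 0.05 in limma, at 25 ng/bee against control (0% called over all genes), at 250 ng/bee against control (0%), between the doses (0%) or for any difference among the 3 groups (0%). The smallest adjusted p of a member isoform was 0.344, 0.935, 0.591 and 0.268 in that order. At an unadjusted p under 0.05, limma had 42 member isoforms at 25 ng/bee (21 higher and 21 lower) beside 4.85% of all isoforms tested. It had 29 at 250 ng/bee (12 higher, 17 lower) beside 4.32%, 40 between the doses beside 4.62%, and 33 for any difference beside 4.82%. With limma's diffSplice method 2 member isoforms passed at 25 ng/bee (0.21% of all), none at 250 ng/bee (0%) and none between the doses (0.0399%).

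The median size of a member isoform's difference was 0.82 on the log2 odds scale at 25 ng/bee and 0.74 at 250 ng/bee, and its median standard error was 1.26 in both. In shares, the median difference between group means was 5.34 percentage points at 25 ng/bee and 4.82 at 250 ng/bee. Of the 979 isoforms, 646 (66.0%) were listed at 0 in at least 1 library. A moderate shift of a single isoform was thus not detectable with this spread, and the absence of a call does not show that shares were equal.

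The 413 member start groups, tested in the same way among 4329, had no call in any of the 3 comparisons or for any difference (0% in each over all genes). At an unadjusted p under 0.05, limma had 18 member groups at 25 ng/bee (4.97% of all), 14 at 250 ng/bee (4.92%), 15 between the doses (4.85%) and 14 for any difference (5.2%). The 210 member end groups among 2218, a test added after the data were seen, had none either (0% in each), with 9 (5.18% of all), 10 (4.37%), 10 (4.87%) and 11 (5.41%) at an unadjusted p under 0.05. Their standard errors were smaller than those of single isoforms, with a median of 0.48 for end groups and 1.07 for start groups on the log2 odds scale.

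The isoforms with the smallest p were followed library by library. In LOC408740 (chromosome 3, 8951823 to 9274667) the isoform XM_003250320.4, with 15 exons and 5478 bases, was listed at 0 in all 5 control libraries. It held 26.8%, 9.74%, 54.7%, 29.7% and 34.1% at 25 ng/bee, and 9.62%, 13.2%, 29.1%, 0 and 25.4% at 250 ng/bee. The control and 25 ng/bee did not overlap, and 4 of 5 libraries at 250 ng/bee were above the control. Against a group at 0 no fold is given, and limma's adjusted p was 0.344 at 25 ng/bee and 0.935 at 250 ng/bee. Without replicate 4 at 250 ng/bee they were 0.00291 and 0.0289, but this is the 1 library of that dose that lies with the control, so these values do not count as support. Its start group, which holds 4 other transcripts, ranged from 11.2% to 97.5% in the control and from 69.6% to 100% at 25 ng/bee.

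In LOC727159 (chromosome 3, 4944885 to 4964114) XM_026439793.1 held 12.8%, 19.5%, 7.53%, 24.2% and 8.61% in the control. It was listed at 0 in 4 libraries at 25 ng/bee, at 0.55% in replicate 4, and at 3.63%, 25.8%, 18.5%, 11.6% and 0.39% at 250 ng/bee. The control and 25 ng/bee did not overlap, while 250 ng/bee covered both. The log2 odds difference at 25 ng/bee was -5.20 ± 0.95 (limma, adjusted p = 0.344), and without replicate 5 at 250 ng/bee, the lowest library of that dose, the adjusted p was 0.0445. LOC409200 (chromosome 15) showed the same order in XM_006558246.3, with 14.8% to 25.2% in the control, 0 in 4 libraries and 7.53% in replicate 2 at 25 ng/bee, and between 0 and 31.2% in libraries of 250 ng/bee (log2 odds difference at 25 ng/bee -4.85 ± 1.15, limma adjusted p = 0.725).

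In LOC409444 (chromosome 5, 10909122 to 10931649, minus strand) XM_006567712.3 is the only transcript of the most upstream start group and the leading isoform of the control. It held 21.6%, 30.8%, 45.1%, 37.2% and 15.04% in the control, 0 in replicates 1 to 4 and 27.2% in replicate 5 at 25 ng/bee, and 3.68%, 11.7%, 17.2%, 6.29% and 0 at 250 ng/bee. Both doses overlapped the control, each in 1 library. The log2 odds difference at 25 ng/bee was -6.32 ± 1.60 (limma, adjusted p = 0.735). As a start group its adjusted p was 0.0345 without replicate 5 at 25 ng/bee, the only library of that dose above 0, and with diffSplice the isoform had 0.0325. In LOC552094 (chromosome 1) XM_006569627.3 was listed at 0 in all control libraries, at 18.04%, 14.5%, 37.8%, 0 and 15.4% at 25 ng/bee, and at 5.81%, 0, 0, 0 and 7.18% at 250 ng/bee (limma adjusted p at 25 ng/bee 0.735).

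**Figure D4:**
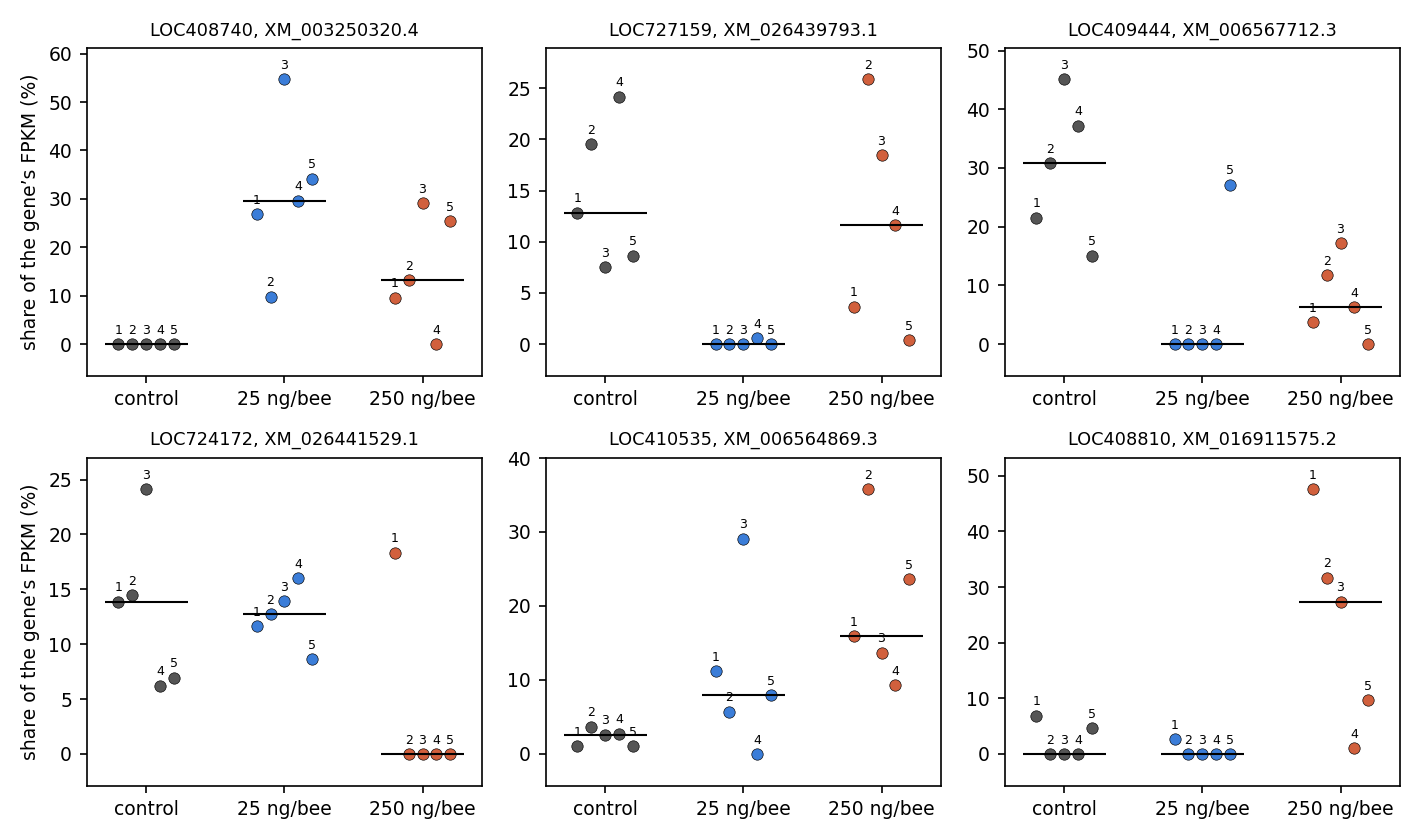
Points give the share of 1 isoform in its gene's FPKM (y axis, percent) in each library, numbered by replicate, for 6 genes, and bars are group medians. The isoform of LOC408740 is at 0 in all controls and at 9.74% to 54.7% at 25 ng/bee, and that of LOC724172 is at 0 in 4 of 5 libraries at 250 ng/bee with replicate 1 at 18.3%. None of the 6 passed the test over all isoforms.

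At 250 ng/bee, XM_026441529.1 of LOC724172 (chromosome 6, 9764269 to 10200454), an isoform of 52 exons, held 13.9%, 14.4%, 24.1%, 6.21% and 6.94% in the control and 11.6%, 12.7%, 13.9%, 16.0% and 8.62% at 25 ng/bee. At 250 ng/bee it was listed at 0 in replicates 2 to 5 and at 18.3% in replicate 1. The log2 odds difference from the control was -3.53 ± 0.95 (limma, adjusted p = 0.935). Replicate 1 at 250 ng/bee stands apart from the other 14 libraries in its label and depth. Without it, the only library of that dose above 0, the adjusted p was 0.0172 against the control and 0.0146 against 25 ng/bee.

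XM_006564869.3 of LOC410535 (chromosome 14, 8825320 to 8913127) held 1.08%, 3.67%, 2.62%, 2.73% and 1.01% in the control, 11.2%, 5.71%, 29.1%, 0 and 7.92% at 25 ng/bee, and 15.9%, 35.8%, 13.7%, 9.29% and 23.6% at 250 ng/bee. All 5 libraries at 250 ng/bee were above all controls (log2 odds difference 2.89 ± 0.80, limma adjusted p = 0.935). The isoform has its own start, the most downstream of 4 start groups. The most upstream start group of this gene held 98.8%, 95.6%, 97.4%, 97.3% and 81.8% in the control and 63.0% to 90.2% at 250 ng/bee.

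In LOC408810 (chromosome 4, 6787813 to 6977717) XM_016911575.2, the only transcript of the most upstream start, held 6.90%, 0, 0, 0 and 4.65% in the control and 47.5%, 31.7%, 27.3%, 1.02% and 9.65% at 250 ng/bee (log2 odds difference 2.37 ± 0.70, limma adjusted p = 0.935). At 25 ng/bee it was at 2.67% in replicate 1 and at 0 in the others. XM_016917211.2 of LOC410161 (chromosome 3) was at 1.56% to 34.0% in control libraries, 1.97% to 5.75% in those of 25 ng/bee and 0 to 1.84% in those of 250 ng/bee (log2 odds difference at 250 ng/bee -3.42 ± 0.85, limma adjusted p = 0.935). Between the doses, XM_006567851.3 of LOC411756 held 88.8%, 78.6%, 81.5%, 5.72% and 26.3% at 25 ng/bee and 7.40%, 0, 0, 0 and 0.17% at 250 ng/bee, beside 0 to 32.7% in the control (log2 odds difference -6.03 ± 1.43, limma adjusted p = 0.617).

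Among start groups, the leading one of LOC100577138 (chromosome 10) held 45.1%, 69.2%, 74.4%, 76.6% and 66.9% in the control, 4.79%, 3.01%, 16.3%, 4.80% and 53.9% at 25 ng/bee, and 40.8%, 65.4%, 37.7%, 3.91% and 39.8% at 250 ng/bee. Only replicate 5 at 25 ng/bee overlapped the control (log2 odds difference -4.03 ± 1.04, limma adjusted p = 0.585). In LOC727232 (chromosome 14) the more downstream of 2 start groups held 100% in 12 libraries and 92.9%, 74.5% and 77.4% in replicates 1, 2 and 4 at 250 ng/bee. In LOC414021 (chromosome 1) the second start group held between 2.43% and 11.3% at 25 ng/bee and between 5.42% and 30.5% at 250 ng/bee, beside 3.37% to 21.0% in the control.

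The groups did not overlap for 6 of the 979 member isoforms at 25 ng/bee against control (0.655% of all isoforms tested), 6 at 250 ng/bee (0.598%) and 6 between the doses (0.75%). Each count is 0.613% of the member isoforms and near the share over all genes. Besides those above, the pairs with the control included isoforms that were above 0 in every library and are named for that after their values were seen. XM_624706.6 of LOC552330 held 14.6% ± 3.80 in the control, 24.4% ± 2.64 at 25 ng/bee and 22.9% ± 5.27 at 250 ng/bee (log2 odds difference at 25 ng/bee 0.94 ± 0.38, limma adjusted p = 0.946). XM_026441344.1 of LOC413159 held 5.83% ± 0.93, 8.57% ± 1.69 and 7.92% ± 0.57 (log2 odds difference at 250 ng/bee 0.46 ± 0.38, limma adjusted p = 0.998).

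The evenness of isoform use was lower at 25 ng/bee in more members than not, without a call. The effective number of isoforms was lower than in the control in 136 of 200 members (68%), with a median log2 difference of -0.12, beside 52.4% and -0.01 over the 4022 genes tested. In limma 0 members passed at 25 ng/bee (0.0249% of all), 250 ng/bee (0%), between the doses (0.0249%) or for any difference (0.0249%). At an unadjusted p under 0.05 there were 20 at 25 ng/bee (5.27% of all), with 4 higher beside 1.67% of all and 16 lower beside 3.61%. There were 10 at 250 ng/bee (4.9%), with 5 higher (2.29% of all) and 5 lower (2.61%), 12 between the doses (4.72%), with 9 higher (2.78%) and 3 lower (1.94%), and 13 for any difference (4.9%). The library medians of the effective number were 2.60 to 3.00 in control libraries, 2.58 to 2.73 in those of 25 ng/bee and 2.35 to 3.12 in those of 250 ng/bee, so the groups overlapped. The highest of these, 3.12, was in the library with the most counts (29208991) and the lowest, 2.35, in the one with the fewest (6834898), both at 250 ng/bee. Totals were between 8123655 and 10067138 counts in libraries of 25 ng/bee and between 9226059 and 11500655 in control libraries, and the part of depth in the lower effective numbers was not tested. The median share of the leading isoform of each library was 46.9% to 51.9% in control libraries, 51.4% to 53.8% in those of 25 ng/bee and 44.0% to 55.4% in those of 250 ng/bee.

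Use of long against short isoforms also had no call. The mean isoform length weighted by share had a library median of 5329 to 5400 bases in control libraries, 5246 to 5407 in those of 25 ng/bee and 5289 to 5435 in those of 250 ng/bee. In limma 0 members passed (0% of all in each comparison). At an unadjusted p under 0.05 there were 10 at 25 ng/bee (4.45% of all), 7 at 250 ng/bee (4.55%), 11 between the doses (4.15%) and 13 for any difference (4.2%). Noncoding models held a library median of between 16.1% and 27.3% of their gene in control libraries, between 19.2% and 34.6% in those of 25 ng/bee and between 18.9% and 28.7% in those of 250 ng/bee, over the 46 members that have them.

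The gene count was lower at 250 ng/bee in most members, by a small amount and with no call. The part of a library's counts held by all members together was not lower. It was 2.34% to 3.78% in control libraries (median 2.90%) and 2.17% to 3.96% in those of 250 ng/bee (median 3.24%). The log2 fold change of the gene count was below 0 in 153 of 200 members (76.5%) with a median of -0.11, beside 55.6% and -0.03 over the 9560 genes tested. At 25 ng/bee it was below 0 in 137 (68.5%) with a median of -0.05, beside 52.2% and -0.01, and without control replicate 5 it was below 0 in 100. Other genes with long transcripts gave similar values. Among 939 genes outside the list with a median transcript length at or above the members' median, the median was -0.14 and 75.5% were below 0 at the higher dose. Without control replicate 5, 135 members were below 0 at that dose. Leaving out its replicate 1, 134 members were below 0 and the median was -0.08, beside -0.02 over all genes. Transcript length goes with the pattern, and its part in the result was not tested. In bulk brain RNA, fewer cells of a type and less RNA per cell cannot be told apart.

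**Figure D5:**
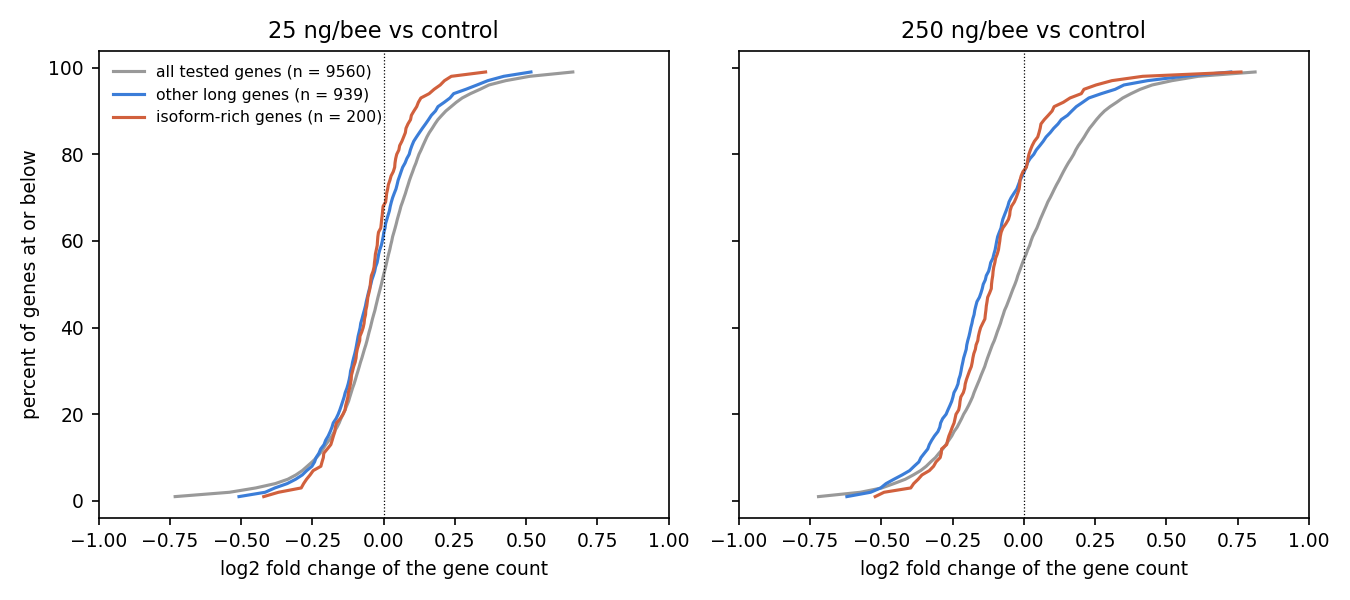
Lines give the percent of genes (y axis) with a log2 fold change of the gene count at or below the value on the x axis, for the 200 isoform-rich genes, 939 other long genes and all 9560 genes tested, at 25 ng/bee (left) and 250 ng/bee (right) against control. At 250 ng/bee the isoform-rich and the other long genes lie left of all genes, with medians of -0.11, -0.14 and -0.03.

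With edgeR's quasi-likelihood test 0 members passed an adjusted p of 0.05 at 25 ng/bee, at 250 ng/bee, between the doses or for any difference (0% called over all genes in each). At an unadjusted p under 0.05 there were 6 at 25 ng/bee (2.46% of all), 31 at 250 ng/bee (12% of all), of which 28 were lower (7.48% of all) and 3 higher (4.49%), 7 between the doses (4.99%) and 19 for any difference (6.75%). DESeq2 called 2 members at 250 ng/bee (0.565% of all) and none in the other pairs of groups, and edgeR without replicate 1 at 250 ng/bee called 1, LOC409856, at 250 ng/bee (2.58% of all). LOC552094 had 99.9, 112, 115, 105 and 113 CPM in the control, 97.8, 101, 94.2, 82.6 and 99.7 at 25 ng/bee and 78.9, 88.4, 84.6, 82.8 and 98.6 at 250 ng/bee. All 250 ng/bee libraries were below all controls (log2 fold change -0.33 ± 0.08, edgeR adjusted p = 0.277, and DESeq2 adjusted p = 0.0453).

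LOC409856 (chromosome 3, 10728999 to 10819043) had 29.0, 35.9, 32.1, 30.8 and 27.1 CPM in the control, between 22.6 and 29.5 at 25 ng/bee and 25.5, 20.7, 23.8, 20.6 and 24.8 at 250 ng/bee, again with no overlap between control and 250 ng/bee (log2 fold change -0.42 ± 0.11, edgeR adjusted p = 0.277, and 0.0413 without replicate 1 at 250 ng/bee). LOC410393 (chromosome 12) had between 15.7 and 23.8 CPM in the control and between 12.5 and 15.4 CPM at 250 ng/bee (log2 fold change -0.51 ± 0.13, edgeR adjusted p = 0.277), with 1 leading isoform in all libraries at 76.6% ± 8.28 in the control. LOC552094, LOC409856 and LOC410393 were named for the smallest p at this dose, so groups without overlap go with that choice. The share of all genes whose counts do not overlap is not given here, so the separation does not count as support. LOC410535, described above for its start sites, had 34.0, 21.3, 31.9, 36.5 and 40.5 CPM in the control, between 16.5 and 28.6 at the lower dose and between 18.8 and 24.3 at the higher (log2 fold change -0.61 ± 0.17 at both doses, edgeR adjusted p = 0.998 and 0.277).

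A few members varied widely in level between pools of one group. The coefficient of variation of the gene level over the 5 control libraries had a median of 13.3% over members, but was 127% in LOC409821, 127% in LOC409843 (chromosome 8, 34 transcripts), 89.2% in LOC551259 (chromosome 7, 30 transcripts) and 63.7% in LOC410211. LOC409821 had 11.6, 16.7, 21.4, 23.3 and 138 CPM in the control, 18.3, 52.8, 40.2, 92.1 and 27.0 at 25 ng/bee, and 25.5, 48.1, 76.6, 170 and 37.4 at 250 ng/bee. The summed level of the muscle marker genes TpnCI, TpnCIIIa, TpnCIIIb and TpnT, which encode troponin subunits of the muscle thin filament, was 84.1, 75.3, 127, 135 and 597 CPM, then 104, 214, 264, 392 and 156, then 157, 243, 445, 796 and 206 in the same libraries. Both were highest in control replicate 5, in replicate 4 at 25 ng/bee and in replicate 4 at 250 ng/bee.

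Over the 15 libraries, log2(CPM + 1) of LOC409821 correlated with the log2 troponin sum with a Pearson's r of 0.98 and a Spearman's rho of 0.98 (permutation test, two-sided, p = 1e-05 for each, the smallest that 100000 permutations can give). Over the 200 members tested, the adjusted values were 0.000667 and 0.001. Without the 2 libraries farthest from the median troponin level r was 0.96, and without replicate 1 at 250 ng/bee 0.98. LOC409843 had 0.98 and 0.95 (permutation adjusted p = 0.000667 and 0.001), and LOC551259 0.92 and 0.89 (permutation adjusted p = 0.001 and 0.004), with r of 0.96 and 0.85 without the 2 farthest libraries. These were the 3 members that passed with both coefficients. LOC410211 had an r of 0.88 and a rho of 0.79 (permutation adjusted p = 0.000667 and 0.052). For LOC411347, the fifth most variable member, r was 0.01. The 4 genes were singled out after their values were seen.

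Of the markers of cell types that a dissected brain can hold, the 7 neuronal ones found by symbol, of 10 names, all had negative log2 fold changes at 250 ng/bee (median -0.27, none called). Over all genes tested, 55.6% were below 0 at that dose. At 25 ng/bee 6 of the 7 were negative (median -0.06, none called), beside 52.2% of all genes. Their summed level was 1159 to 1475 CPM in control libraries, 1021 to 1348 CPM in those of 25 ng/bee and 938 to 1134 CPM in those of 250 ng/bee. How often groups do not overlap over all genes is not given here, so the separation at 250 ng/bee does not count as support. The 4 troponin genes, of 5 muscle names, all had positive log2 fold changes at 250 ng/bee (median 0.85, none called). Royal jelly protein and other gland genes summed to between 30403 and 236831 CPM in control libraries, and 4 of 5 retina, 4 of 4 fat body and 1 of 5 glial marker names were found by symbol and passed the low-count filter. At 250 ng/bee 2 retina genes had positive and 2 negative log2 fold changes, of the fat body genes 3 and 1, and of the 5 gland genes 2 and 3. The glial marker Eaat-2 had -0.09, and none of these genes was called. The part of these cell types in the share results was not tested. Members held 2.17% to 3.96% of the counts of a library, and library totals ranged from 6834898 counts to 29208991 counts, both at 250 ng/bee, the latter in replicate 1.

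Of a list of 40 names of factors that choose splice sites, edit RNA or belong to the sex-determination splicing cascade of bees, 5 were found by symbol: Adar (an RNA-editing enzyme), Csd and Fem (the honey bee sex-determination genes), Snf (a spliceosome protein) and tra2 (a splicing regulator). None passed edgeR's test, and 3 were higher and 2 lower at each dose. Fem had 99.5 ± 4.93 CPM in the control, 102 ± 8.73 at 25 ng/bee and 111 ± 10.7 at 250 ng/bee (log2 fold change at 250 ng/bee 0.15 ± 0.09, edgeR adjusted p = 0.492). For tra2 the values were 92.9 ± 13.2, 91.5 ± 9.37 and 85.1 ± 7.69 CPM (log2 fold change -0.13 ± 0.11, edgeR adjusted p = 0.661).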

How the data were processed

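The submitters' processing notes name StringTie 2.0.2, HISAT2 2.1.0, Trimmomatic 0.39, DESeq2 1.22.2 and SAMtools 1.7, with no roles. Sources used here give neither a build nor whether counting used strand. Gene values were deposited as estimated counts, equal within 1 count to summed transcript coverage times length over 75 in 100% of genes, so a gene's count follows its transcript estimates. The deposited transcript tables hold FPKM and coverage per transcript, per the file headers. FPKM gave the shares, and coverage served only for that check. An FPKM listed at 0 can be a failed estimate.

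Coordinates are 1-based, as the deposited tables give them, and equal Amel_HAv3.1 for all 200 members.

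Counts were rounded and tested with edgeR 4.0.16 (TMM, filterByExpr, quasi-likelihood F test, two-sided) in R 4.3.3. Log2 odds of shares, log2 effective numbers and log2 mean lengths were tested with limma 3.58.1 (two-sided, robust and trended moderation, pseudocount 0.1 FPKM, mean gene count of at least 100, mean share of at least 5%). Each fit held all 15 libraries and modelled group alone, and p was adjusted by Benjamini-Hochberg over all genes or isoforms. Intervals are standard errors for differences and SD (n = 5) for levels. The 3 comparisons share libraries. The log2 odds of an isoform near 0 or 100% depend on the gene's FPKM through the pseudocount. Alternatives are given in the closing section. The scripts were tested on simulated data, whose isoform values had less spread than these libraries and no added zeros. That check does not measure what could be detected here.

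Named genes were the 10 members with most transcripts, the 5 highest and 5 lowest effective numbers, the smallest p-values of each comparison (5 isoforms, 3 start groups, 3 genes), the 5 highest FPKM and the 3 most variable leading shares; not all are described. The members and lists were chosen with earlier results of these data known. Splicing regulator names that matched no symbol were not analysed here. Replicate 1 at 250 ng/bee carries another description prefix than the other 14 libraries, and the labels do not say what it stands for.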

Additional observations from a re-analysis of the deposited data

Results flagged for a closer look

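In 57 sets of 5 libraries, the highest or lowest library was compared with the rest, and 8 had a library whose gap to the nearest other was over 0.71 of the whole range. Chance flags about 1 in 20 such sets, and in sets with 4 libraries at 0 any value above 0 is flagged.

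Of the 8, 5 sets had 4 libraries listed at 0: XM_026439793.1 of LOC727159 at 0.553% in replicate 4 at 25 ng/bee, XM_006558246.3 of LOC409200 at 7.53% in replicate 2 at 25 ng/bee, XM_006567712.3 of LOC409444 at 27.2% in replicate 5 at 25 ng/bee, XM_016911575.2 of LOC408810 at 2.67% in replicate 1 at 25 ng/bee, and XM_026441529.1 of LOC724172 at 18.3% in replicate 1 at 250 ng/bee. XM_006567851.3 of LOC411756 held 7.40% in replicate 1 at 250 ng/bee, where the others held 0 to 0.174%. XM_016917211.2 of LOC410161 held 34.0% in control replicate 2, where the others held 1.56% to 10.6%. The median effective number of isoforms was 2.73 in replicate 1 at 25 ng/bee, where the other libraries of that dose had 2.58 to 2.61.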

How the results depend on the processing

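With the settings above, no member isoform, start group, end group, effective number, mean length or gene count was called, and no result reversed under any alternative run. For isoform shares, limma's diffSplice called 2 member isoforms at 25 ng/bee (XM_026444670.1 of LOC100576879 and XM_006567712.3 of LOC409444), and it gives no test of any difference among the 3 groups. Leaving out 1 library gave 0 to 1 called member isoforms in each comparison: XM_026441529.1 of LOC724172 without replicate 1 at 250 ng/bee, XM_003250320.4 of LOC408740 without replicate 4 at 250 ng/bee and XM_026439793.1 of LOC727159 without replicate 5 at 250 ng/bee. In each the library left out was the highest or lowest of its group, so these calls do not count as support. For start groups it gave 0 to 1 at 25 ng/bee, the 1 being that of LOC409444 without replicate 5 at 25 ng/bee. For gene counts at 250 ng/bee it gave 0 to 1, LOC409856 without replicate 1 at 250 ng/bee, and DESeq2 called 2 (LOC551673, with an adjusted p of 0.0422, and LOC552094). The cause was not tested. The median share that differs between control libraries was 39.5 percentage points over all members and 31.6 in those with a mean count of at least 2000. Other pseudocounts, filters on counts and shares, joining distances, the arcsine scale and the replicate block left the number of called members at 0. Whether replicate numbers pair libraries is not in the labels. Over 15 same-number pairs, correlations of deviations from the group mean were -0.08 to 0.33 for genes (6 over 0.1) and -0.03 to 0.07 for isoforms (0 over 0.1), so the numbers were not used as pairs. As a hint from the data, not the design, 5 of 15 libraries correlated best with their own number over genes and 3 over isoforms. At this depth 66.0% of the member isoforms tested were listed at 0 in at least 1 library.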
